A study of Mus musculus with 9 samples.

Results

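The R-spondin genes Rspo1 to Rspo4, their receptor genes Lgr4, Lgr5 and Lgr6, the ubiquitin ligase genes Znrf3 and Rnf43, and the Wnt inhibitor gene Dkk1 were followed in the embryonic cardiac outflow tract. They were taken by symbol, and all 10 were found among the 48397 gene symbols of each count table. They were selected on their counts in HO against WT, with a litter number read from the deposited libraries as a covariate. The tissue came from C57BL/6J mice at embryonic day 12.5 and was profiled by RNA sequencing. The mutant samples, labelled HO, carried the genotype Nkx2-5delta-enh/delta-enh on both alleles, a deletion of the anterior second heart field enhancer of the cardiac transcription factor gene Nkx2-5 (n = 5). Their wild-type littermates, labelled WT, were Nkx2-5+/+ (n = 4). No other allele or agent is named for either group, and the labels do not say whether each sample was 1 embryo, so p-values cover only sample-to-sample spread, part of which may be technical.

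Secreted R-spondins amplify Wnt signalling. They bind Lgr4, Lgr5 or Lgr6 at the cell surface and, through them, clear the membrane ubiquitin ligases Znrf3 and Rnf43, which otherwise remove the Wnt receptors (frizzled proteins and Lrp5 or Lrp6). Dkk1 acts the opposite way, by binding Lrp5 and Lrp6, and several of these genes, Dkk1, Lgr5, Znrf3 and Rnf43 among them, are themselves targets of Wnt signalling in various tissues. Wnt signals act on second heart field progenitors and on the growth of the outflow tract, and mouse embryos without Rspo3 fail in vascular development.

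The libraries held 27707435 to 49094225 counts assigned to genes. Nkx2-5 stood at 16.5, 24.4, 17.8, 11.4 and 17.4 CPM (CPM is the count scaled to the size of the library) in HO 1 to 5, against 18.8, 42.0, 45.0 and 39.5 CPM in WT 1 to 4, so that WT 1 lay inside the HO range. A number carried by each deposited library was read as a litter number, which is an assumption. It put HO 1, HO 2, WT 1 and WT 2 in a first litter and HO 3, HO 4, WT 3 and WT 4 in a second. HO 5 carried a number of its own. Where HO 5 is set with the second litter below, that is a further assumption, and its number does not place it there. Heart muscle, smooth muscle, endothelial and cushion markers were all above 1 CPM in at least 1 library. HO 2 stood apart, with 3000 CPM summed over 8 neuron markers, against 75.8 to 133 CPM over the other libraries of both genotypes.

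Promoter sequence from RefSeq (GRCm38.p6, 250 bases before to 50 bases after the start) matched 6 of the 10 genes: Dkk1, Lgr4, Lgr6, Rnf43, Rspo1 and Rspo4. The promoters of Dkk1 and Lgr6 are shown, since these 2 genes had the largest differences between litters, in opposite directions. Capitals mark TCF/LEF letters (CTTTGAT or CTTTGAA, the binding word of the factors that carry the Wnt signal), NKX2-5 letters (TTAAGTG or TCAAGTG) and a TATA box (TATAAA), all searched on both strands.
Dkk1, chr19:30549447-30549746, minus strand: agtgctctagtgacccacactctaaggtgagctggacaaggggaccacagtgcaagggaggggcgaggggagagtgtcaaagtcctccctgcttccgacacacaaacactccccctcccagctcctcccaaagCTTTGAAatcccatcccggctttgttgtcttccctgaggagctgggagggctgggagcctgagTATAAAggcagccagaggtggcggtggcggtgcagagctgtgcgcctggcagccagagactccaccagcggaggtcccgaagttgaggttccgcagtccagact
Lgr6, chr1:135105227-135105526, minus strand: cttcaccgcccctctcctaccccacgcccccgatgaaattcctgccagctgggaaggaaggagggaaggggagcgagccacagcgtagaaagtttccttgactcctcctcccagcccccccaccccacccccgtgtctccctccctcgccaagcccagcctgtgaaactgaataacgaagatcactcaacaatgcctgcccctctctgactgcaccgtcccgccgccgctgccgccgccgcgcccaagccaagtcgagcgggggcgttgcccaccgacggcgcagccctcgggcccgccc
Only the Dkk1 promoter held any of these letters among the 7 windows of the 6 genes (Rnf43 has 2 starts). CTTTGAA began 117 bases and TATAAA 54 bases before the RefSeq start (positions -117 and -54), both on the strand of the gene and without overlap. GENCODE M21 starts Dkk1 further upstream, at 30549665, and by that annotation both marked stretches lie inside the gene. Over 32851 promoters of this length, 8.65% held the TCF/LEF letters, 13.6% TATAAA and 5.34% the NKX2-5 letters.

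Levels of the 10 genes were compared per length, as RPKM (CPM per kilobase of merged exons). Rspo3 was the most abundant, at 23.1 ± 7.25 RPKM, followed by Rspo1 at 10.5 ± 6.69 and Lgr4, the broadly expressed R-spondin receptor, at 9.19 ± 2.46 (mean ± SD, n = 9 libraries each). In the order of mean log2 RPKM, Znrf3 (2.34 ± 0.615), Dkk1 (3.65 ± 3.20), Rspo2 (1.20 ± 0.527) and Lgr6 (1.95 ± 2.48) formed a middle group. Rnf43 (0.332 ± 0.140) and Lgr5 (0.328 ± 0.186), the receptor known as a stem cell marker of the gut, were low, and Rspo4 was lowest at 0.0589 ± 0.0678.

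Steps between neighbours in this order were put to an exact two-sided permutation test that flips the sign of the difference within each of the 9 libraries. The order came from the same libraries, so the pairs and the direction of each step were set by the values tested. Of the 9 steps, 3 passed. Rspo3 exceeded Rspo1 in 9 of 9 libraries by 1.30 on the log2 scale (SD 0.719, exact p = 0.00391, adjusted p = 0.0176), and Lgr4 exceeded Znrf3 in 9 of 9 by 1.97 (SD 0.679, with the same exact and adjusted p). This exact p is the smallest that 9 libraries allow. Lgr5 exceeded Rspo4 in 8 of 9 libraries (exact p = 0.0156, adjusted p = 0.0469). Neighbours that did not differ beyond their spread were Rspo1 and Lgr4 (adjusted p = 0.973), Znrf3 and Dkk1 (0.944), Dkk1 and Rspo2 (0.633), Rspo2 and Lgr6 (0.973), Lgr6 and Rnf43 (0.0879), and Rnf43 and Lgr5 (0.944), all from the exact permutation test. Pooling the libraries hides reversals, since Rspo1 lay above Lgr4 in 4 of 4 WT libraries but in 1 of 5 HO libraries. Dkk1 lay above Znrf3 and Rspo2 in 4 of 4 libraries of the second litter and below both in 4 of 4 of the first.

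**Figure D1:**
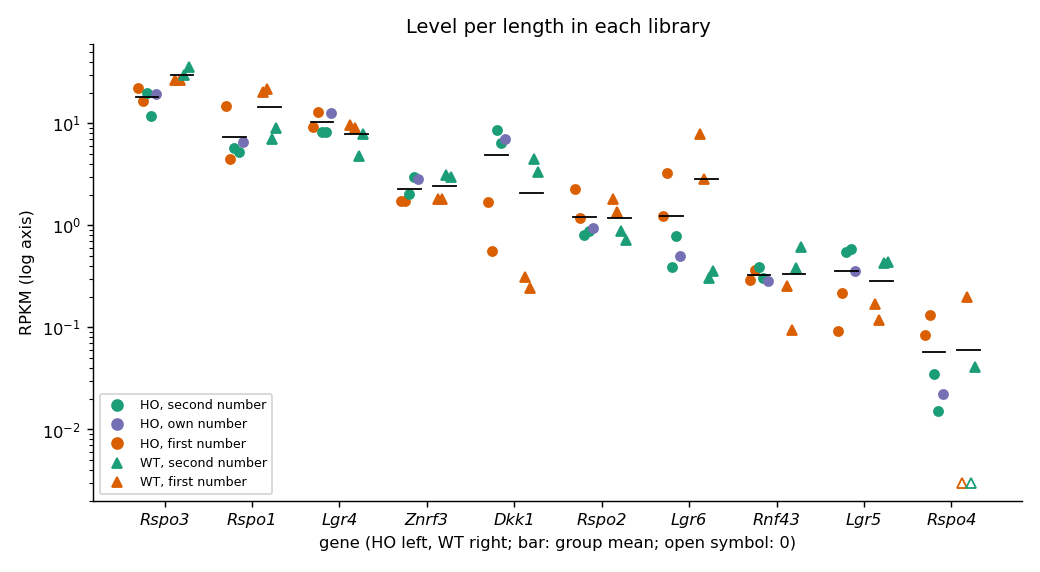
RPKM of each gene in each library on a log axis, genes ordered by mean log2 RPKM, with HO libraries (circles) left of WT libraries (triangles), colours for the litter number and bars for group means. Rspo3 leads in every library and Rspo4 is at 0 in 2 WT libraries. Among the genes above the low-count filter, Dkk1 and Lgr6 spread most widely.

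Among the ligands, Rspo3 made up 56.3%, 74.4%, 75.0%, 65.8% and 72.2% of the summed R-spondin RPKM in HO 1 to 5, against 54.6%, 53.2%, 78.7% and 78.8% in WT 1 to 4. The share thus overlapped between genotypes and was lowest in WT 1, WT 2 and HO 1. The summed RPKM of the 4 ligands was 39.5, 22.4, 26.3, 18.1 and 26.9 in HO 1 to 5, against 48.9, 49.5, 37.4 and 45.5 in WT 1 to 4. Lgr4 made up 54.7% to 93.6% of the summed Lgr RPKM, lowest in WT 1, where Lgr6 held 44.3%. Lgr5 held at most 7.64% in any library on its merged exon length of 10264 bases. Its longest transcript has 4793 bases, and with that length its share would be larger.

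**Figure D2:**
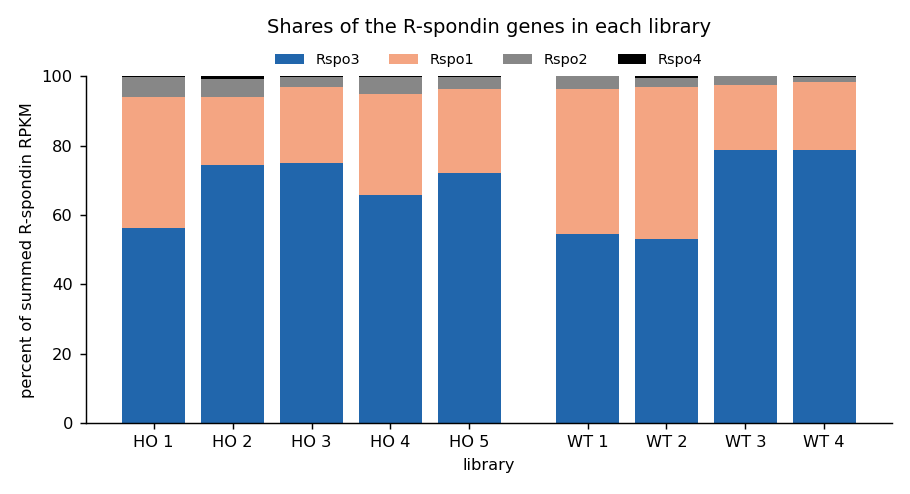
Percent of the summed R-spondin RPKM held by each ligand gene in each library, HO libraries left of WT libraries. Rspo3 holds 53.2% to 78.8% and Rspo1 18.9% to 43.7%.

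The comparison of HO with WT asks how R-spondin signalling genes stood when the Nkx2-5 enhancer was missing. The genes were chosen with this contrast known, so their values are a description, with no test. Rspo3, whose product is the ligand that dominated here, was lower in all 5 HO libraries than in all 4 WT libraries. Its level was 68.8, 51.5, 60.9, 36.7 and 59.9 CPM in HO 1 to 5, against 82.5, 81.4, 91.1 and 111 CPM in WT 1 to 4. The groups averaged 55.5 ± 12.2 CPM (SD, n = 5) in HO and 91.4 ± 13.6 CPM (SD, n = 4) in WT, a log2 fold change of -0.72 (SE 0.17). Rspo3 was the only one of the 9 genes above the low-count filter whose genotypes did not overlap, where 1.8% of all 16522 genes tested did not overlap, 0.974% with HO lower.

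Since the groups did not overlap, Rspo3 was necessarily lower in every HO library within each litter too, and only the sizes of the differences add to this. In the second litter the log2 fold change was -0.94 (SE 0.21) with HO 5 and -1.05 (SE 0.21) without it. In the first litter it was -0.43 (SE 0.19). With the litter number as a covariate, where HO 5 is alone at its number and adds nothing, it was -0.75 (SE 0.19). Rspo3 lies on chromosome 10 from 29452416 to 29535867 on the minus strand (mm10, GENCODE M21). It shares 404 of its 3090 exon bases with the antisense gene Gm48159, which is not among the counted symbols. Without a stated strand setting, it cannot be told whether Gm48159 reads from the shared bases were counted for Rspo3.

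Rspo1, a ligand best known from gonad development, stood at 28.9, 8.58, 11.1, 10.2 and 12.6 CPM in HO 1 to 5, against 39.5, 41.9, 13.7 and 17.3 CPM in WT 1 to 4. The groups overlapped, because HO 1 was high and WT 3 and WT 4 were low, but within each litter every HO value lay below every WT value. The log2 fold change was -0.97 (SE 0.43), and -0.83 (SE 0.32) with the litter number as a covariate, where HO 5 adds nothing.

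Rspo2, known from limb and lung development, averaged 6.19 ± 3.08 CPM (SD, n = 5) in HO and 6.10 ± 2.58 CPM (SD, n = 4) in WT, with overlap in both litters. Rspo4, a ligand known for nail formation in humans, had 10, 9, 3, 1 and 2 counts in HO 1 to 5, against 0, 19, 0 and 4 counts in WT 1 to 4. It did not reach the low-count filter, and the 0 counts of WT 1 and WT 3 allow up to 3 counts, or 0.0834 and 0.0872 CPM (counting error only).

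Of the receptors, Lgr4 was at 54.1, 76.2, 48.9, 48.6 and 74.0 CPM in HO 1 to 5, against 57.2, 52.7, 28.4 and 46.5 CPM in WT 1 to 4. The groups overlapped, and WT 3 was the lowest library. Its log2 fold change was 0.39 (SE 0.22). Lgr5 was at 3.70 ± 2.18 CPM (SD, n = 5) in HO and 2.94 ± 1.72 CPM (SD, n = 4) in WT, a log2 fold change of 0.33 (SE 0.56). Lgr6, a receptor known from skin and hair follicles, had a log2 fold change of -1.20 (SE 0.97), which rested on WT 1 at 54.0 CPM and was 0.08 without that library.

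The ubiquitin ligase genes stood close between genotypes. Znrf3 averaged 17.9 ± 4.81 CPM (SD, n = 5) in HO and 19.1 ± 5.57 CPM (SD, n = 4) in WT, and Rnf43 2.15 ± 0.304 CPM in HO and 2.21 ± 1.46 CPM in WT. The Rnf43 log2 fold change was -0.61 (SE 0.33) in the second litter with HO 5 and 0.92 (SE 0.65) in the first, on fewer than 5 CPM in every library.

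Dkk1 was at 4.11, 1.36, 21.1, 15.6 and 17.2 CPM in HO 1 to 5, against 0.751, 0.596, 10.8 and 8.16 CPM in WT 1 to 4. The groups overlapped because HO 1 and HO 2 lay below WT 3 and WT 4, while within each litter every HO library lay above every WT library. The log2 fold change was 1.22 (SE 0.99) over all libraries, with 0.85 (without WT 2) to 1.90 (without WT 3) when a library was left out, and 1.44 (SE 0.37) with the litter number as a covariate, where HO 5 adds nothing. Within both litters, with HO 5 placed in the second, Rspo1 and Rspo3 were thus lower without overlap and Dkk1 higher. That is 3 of 9 genes, where 5.35% of all genes tested had no overlap in this way, 2.85% with HO lower and 2.5% with HO higher. The genes were proposed from this contrast, so nothing is read from that share. For Rspo3 the separation within litters follows from that over all libraries.

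**Figure D3:**
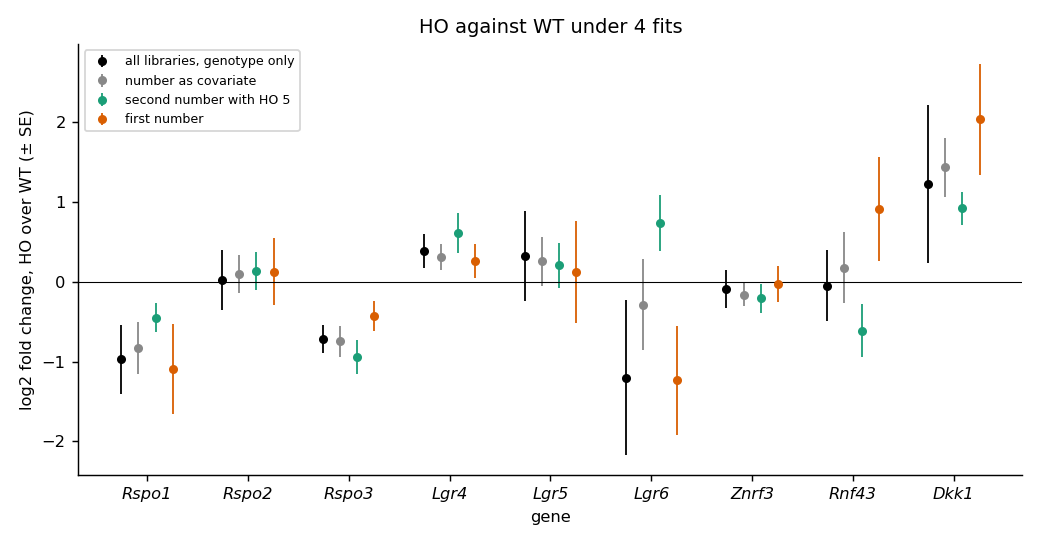
Log2 fold change of HO over WT with its SE for the 9 genes above the low-count filter, from all libraries, with the litter number as covariate, and within the second litter (with HO 5) and the first. Rspo3 stays between -0.94 and -0.43 and Dkk1 between 0.92 and 2.04, while Lgr6 and Rnf43 have opposite signs in the litters.

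Cell type markers were summed beside these values. Heart muscle markers held 11970 to 16158 CPM in HO and 8499 to 19850 CPM in WT, with 9 of 10 at a log2 fold change below 0 and 0 of 10 called by edgeR. Smooth muscle markers held 2421 to 3720 CPM in HO and 3705 to 4072 CPM in WT, with 6 of 6 below 0 and 0 called. Epicardium markers held 526 to 883 CPM in HO and 815 to 1208 CPM in WT, with 7 of 9 below 0. Smooth muscle and epicardium sums were each lower in HO without overlap in the first litter only. There, smooth muscle held 2835 and 2421 CPM in HO, against 3933 and 4071 CPM in WT. Epicardium held 883 and 526 CPM in HO, against 1157 and 1208 CPM in WT. In the second litter with HO 5, where Rspo3 had its larger difference, the sums of each list overlapped. Cushion mesenchyme markers held 1233 to 1823 CPM in HO and 574 to 1961 CPM in WT, with 5 of 5 above 0 and 0 called. In the first litter, where Dkk1 had its larger difference, they held 1618 and 1233 CPM in HO 1 and HO 2, against 745 and 574 CPM in WT 1 and WT 2, without overlap. In the second litter with HO 5, where Dkk1 was also higher in HO without overlap, the cushion sums overlapped. They were 1823, 1533 and 1814 CPM in HO 3 to 5, against 1540 and 1961 CPM in WT 3 and WT 4. Macrophage markers were lower in HO in the first litter, at 173 and 128 CPM against 230 and 255 CPM in WT. Erythroid markers were lower there too, at 4349 and 1870 CPM against 6606 and 10257 CPM in WT. In the second litter with HO 5, erythroid markers were instead higher in HO without overlap. They held 4791, 3241 and 5505 CPM in HO 3 to 5, against 1741 and 2137 CPM in WT 3 and WT 4. Macrophage markers overlapped there (HO 83.2, 95.9 and 71.9 CPM, WT 53.0 and 90.4 CPM). Over all libraries 7 of 7 macrophage and 7 of 8 erythroid markers were below 0, with 0 called. No marker of these 6 lists was under 1 CPM in every library. Their part in the lower Rspo3 and Rspo1 and the higher Dkk1 was not tested, and in whole tissue fewer cells of a type and less RNA per cell cannot be told apart.

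Wnt pathway genes outside this group were tested for HO against WT over all 16522 genes. With edgeR's quasi-likelihood test, adjusted by Benjamini-Hochberg, 0 of the 47 pathway genes tested were called, and 0.0% of all genes. Before adjustment, 2 of the 47 had edgeR p under 0.05, as did 870 of all genes (5.27%). DESeq2 and limma-voom called 0 of the 47, and 34 and 4 over all genes. Among 14 Wnt feedback and target genes, 11 were above 0 and the median log2 fold change was 0.17, where the median of all genes was 0.0029. The litters differed in this: 7 of 14 were above 0 in the second litter with HO 5 (median 0.03), and 11 of 14 in the first (median 0.49), with 0 called by edgeR in either. Leaving out a library gave 8 to 14 of 14 above 0 and medians of 0.04 (without WT 2) to 0.40 (without WT 4). Without HO 2, the library with neuron markers, 14 of 14 were above 0 and the median was 0.31.

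The named target genes had wide errors. Axin2, a feedback inhibitor and general reporter of Wnt signalling, was at 1.33 ± 0.531 CPM (SD, n = 5) in HO and 1.10 ± 0.402 CPM (SD, n = 4) in WT, a log2 fold change of 0.27 (SE 0.42). Notum, which encodes an enzyme that inactivates Wnt ligands, was at 5.01 ± 0.421 CPM in HO and 2.67 ± 2.16 CPM in WT (0.91, SE 0.54). The log2 fold change was 0.06 for Lef1 and 0.29 for Tcf7, which encode Wnt-responsive transcription factors, 0.14 for the feedback gene Nkd1 and 0.11 for the target factor gene Sp5.

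The Wnt receptor genes and their partners followed. Lrp6 was at 52.9 ± 6.24 CPM (SD, n = 5) in HO and 49.5 ± 5.03 CPM (SD, n = 4) in WT, and its log2 fold change was 0.10 (SE 0.11), beside 0.16 (SE 0.23) for Lrp5. Ctnnb1, the beta-catenin gene, was at -0.0026 (SE 0.08). Kremen1, a co-receptor of Dkk1, was at -0.15 (SE 0.12), and Kremen2 had at most 0.143 CPM in any library. Of the other Dickkopf genes, Dkk2 was at -0.09 (SE 0.25) over all libraries, at 0.59 (SE 0.15) within the second litter without HO 5 and at -0.47 (SE 0.29) within the first, without overlap in either. Dkk3, at 480 ± 69.9 CPM in HO and 522 ± 176 CPM in WT, was at -0.12 (SE 0.20). Sdc4 and Bmpr1a, whose products bind R-spondins in Xenopus, were at -0.16 (SE 0.14) and 0.02 (SE 0.11).

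Whether levels moved with the litter was tested apart from genotype. The genes were proposed with earlier results of these data known and with the litter number in the rule, so the shares of all genes called are given beside their counts as a description. The second litter was set against the first with genotype as a covariate, over 4 libraries each and without HO 5. Neither side has a replicate litter, so the p-values of this contrast cover spread between libraries and not between litters. Of the 9 genes tested, 5 passed edgeR's quasi-likelihood test with adjusted p under 0.05, where 9.94% of all 16303 genes did. Dkk1, Lgr5 and Znrf3 were higher in the second litter, where 5.59% of all genes were, and Lgr6 and Rspo2 lower, where 4.35% were. Levels in the litters did not overlap for 6 of the 9, where 19.7% of all genes did not. Without HO 2, 6 of the 9 passed, and without WT 3 or without WT 4 only Dkk1.

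Dkk1 had the largest difference of the 9 genes. In the second litter it was at 21.1 and 15.6 CPM in HO 3 and HO 4 and at 10.8 and 8.16 CPM in WT 3 and WT 4, against 4.11 and 1.36 CPM in HO 1 and HO 2 and 0.751 and 0.596 CPM in WT 1 and WT 2 of the first litter. Every second-litter library lay above every first-litter library. The log2 fold change was 3.24 (SE 0.39), or 9.42-fold, with an edgeR adjusted p of 0.00509. It passed in all 8 edgeR fits that left out a library (adjusted p 0.00123 to 0.0266). Within HO alone, with 2 libraries a litter, it was at 2.72 and did not pass (edgeR adjusted p = 0.139). With the counts summed per replicate number, 2 numbers a litter, it was at 2.93 and also fell short (edgeR adjusted p = 0.0533). HO 5, at 17.2 CPM, lay within the range of the second litter, as it did for Lgr6 (3.45 CPM) and Znrf3 (22.6 CPM), while Lgr5 (3.64 CPM) and Rspo2 (4.78 CPM) lay between the litters. For Lgr4, whose litters did not overlap either, HO 5 at 74.0 CPM lay within the first litter (52.7 to 76.2 CPM).

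The receptors moved in opposite directions between litters. Lgr5 averaged 5.13 ± 0.849 CPM in the second litter and 1.53 ± 0.569 CPM in the first (SD, n = 4 libraries each), a log2 fold change of 1.74 (SE 0.31, edgeR adjusted p = 0.0146). Lgr6 averaged 3.14 ± 1.49 CPM in the second litter and 26.1 ± 19.5 CPM in the first, a log2 fold change of -2.97 (SE 0.60, edgeR adjusted p = 0.0226). Each gene had litters that did not overlap, and each passed in 5 of the 8 edgeR fits that left out a library (adjusted p up to 0.0552 for Lgr5 and 0.0883 for Lgr6). Both fell short without WT 3, without WT 4 and without HO 3. Lgr4 was lower in the second litter without overlap, at 43.1 ± 9.86 CPM against 60.1 ± 10.9 CPM, but did not pass (log2 fold change -0.49, edgeR adjusted p = 0.0919).

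Among the ligands, Rspo2 averaged 4.19 ± 0.404 CPM in the second litter and 8.46 ± 2.51 CPM in the first (SD, n = 4 libraries each), a log2 fold change of -1.02 (SE 0.24, edgeR adjusted p = 0.0354). Rspo1 was at 13.1 ± 3.16 CPM in the second litter and 29.7 ± 15.2 CPM in the first (log2 fold change -1.11, edgeR adjusted p = 0.0646), and the litters overlapped through HO 2 at 8.58 CPM. Without HO 2 its edgeR adjusted p was 0.00455, and with the counts summed per replicate number it was 0.0359. Rspo3 had a litter log2 fold change of -0.00027 (SE 0.18, edgeR adjusted p = 0.999), with 74.9 ± 32.7 CPM in the second litter and 71.0 ± 14.5 CPM in the first.

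Of the ubiquitin ligase genes, Znrf3 averaged 21.8 ± 3.97 CPM in the second litter and 14.0 ± 0.274 CPM in the first (SD, n = 4 libraries each), a log2 fold change of 0.63 (SE 0.14, edgeR adjusted p = 0.0305). Rspo2 and Znrf3 each passed in 2 of the 8 edgeR fits that left out a library. Rspo2 passed without WT 2 or HO 2, and Znrf3 without HO 2 or HO 3. With the counts summed per replicate number neither passed, at an edgeR adjusted p of 0.106 for Rspo2 and 0.0603 for Znrf3. Rnf43 did not pass (log2 fold change 0.80, edgeR adjusted p = 0.282).

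**Figure D4:**
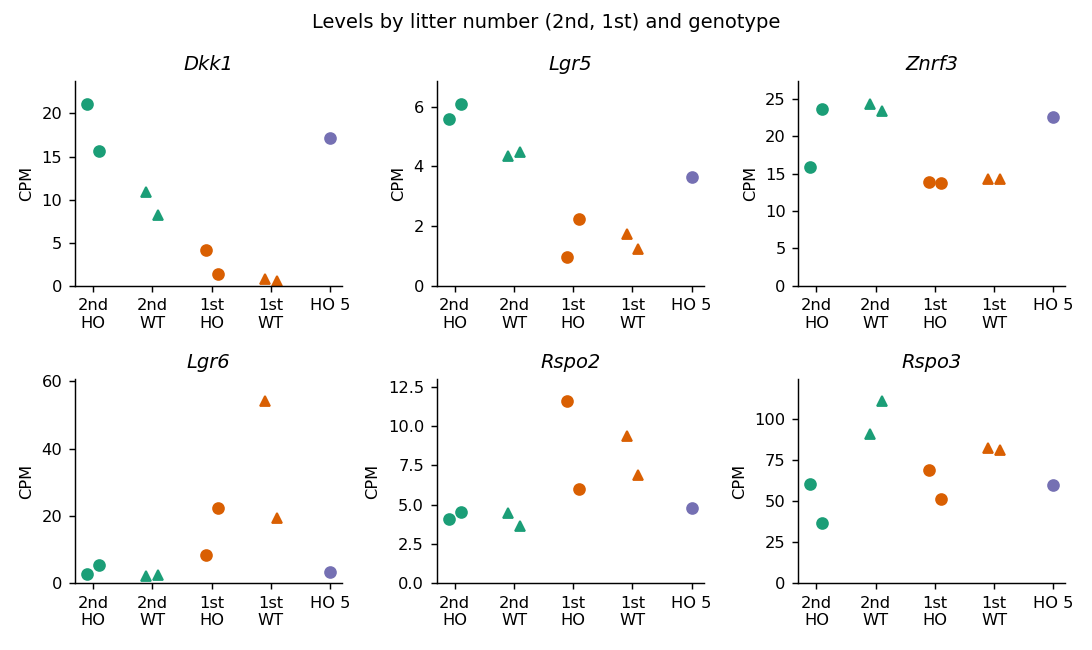
CPM per library for 6 genes by litter number (2nd left of 1st) and genotype (HO circles left of WT triangles), with HO 5 apart. Dkk1, Lgr5 and Znrf3 are higher and Lgr6 and Rspo2 lower in the second litter, while Rspo3 separates by genotype.

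The same contrast was read for the Wnt pathway genes. Of 14 feedback and target genes, 7 were higher in the second litter with edgeR adjusted p under 0.05 and 0 lower, and 14 of 14 were above 0 (median log2 fold change 0.92, where that of all genes was -0.03). Leaving out a library gave 3 to 8 higher and 0 lower, with medians of 0.68 to 0.99. Within WT alone 7 of 13 were called higher, and within HO alone 0 of 12. Lef1 averaged 37.0 ± 4.73 CPM in the second litter and 10.4 ± 4.66 CPM in the first (SD, n = 4 libraries each), a log2 fold change of 1.93 (SE 0.28, edgeR adjusted p = 0.00830). Tcf7 (1.12), the cell cycle gene Ccnd1 (1.00), the secreted Wnt inhibitor gene Apcdd1 (0.86), Nkd1 (0.84), the adhesion receptor gene Cd44 (0.77) and the growth regulator gene Myc (0.63) rose as well. Axin2 (0.97, edgeR adjusted p = 0.109), Notum (1.09) and Sp5 (1.39) did not pass.

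Of the 20 genes of the receptor complex and signal transduction, 2 were called higher in the second litter and 0 lower: Dvl3 (0.40), a dishevelled gene, and Bcl9 (0.46), a beta-catenin cofactor gene. With 1 library left out, 0 of these genes were called higher by edgeR in 5 of 8 fits. Lrp5 (0.47), Lrp6 (0.13) and Ctnnb1 (0.07) did not pass. Among the 5 tested of 9 other Dickkopf, Kremen and secreted inhibitor genes, Sost, an Lrp5 and Lrp6 antagonist known from bone, was called lower at -1.17 (edgeR adjusted p = 0.0410) (with 1 library left out, in 2 of 8 fits), and Dkk2 (-0.26), Dkk3 (-0.40) and Kremen1 (0.09) did not pass. Of 8 genes for other R-spondin binding proteins, 0 were called in either direction by edgeR or DESeq2, Sdc4 (-0.16) and Bmpr1a (-0.06) among them.

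**Figure D5:**
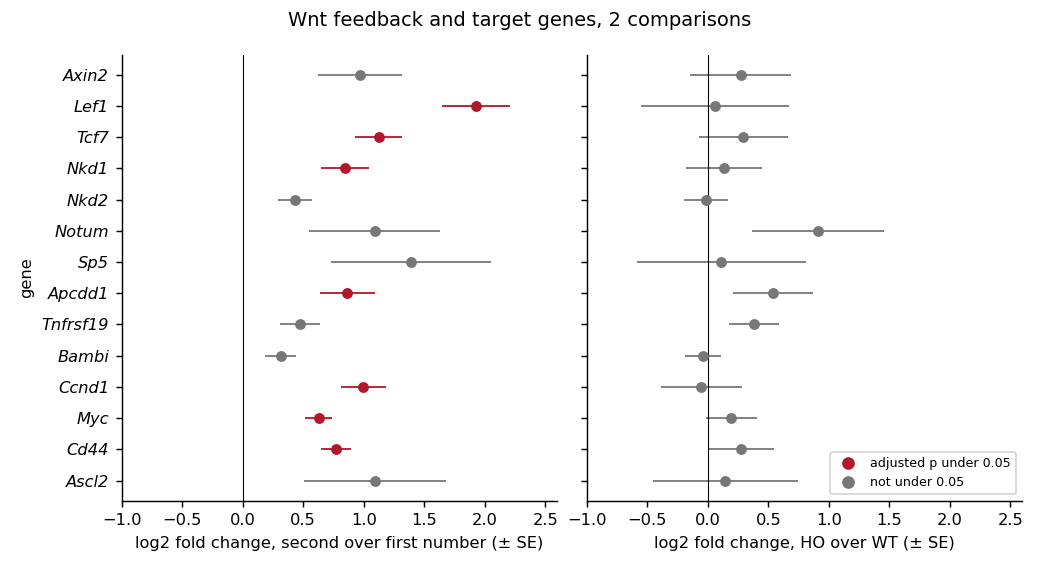
Log2 fold change with SE of the 14 Wnt feedback and target genes for the second over the first litter (left) and for HO over WT (right), with red points for an edgeR adjusted p under 0.05. All 14 lie above 0 on the left, where 7 are red, and 0 are red on the right.

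Markers of other cells moved with the litter. Macrophage markers held 53.0 to 95.9 CPM in the second litter and 128 to 255 CPM in the first, without overlap, and 5 of 7 were called lower by edgeR (1 to 6 when a library was left out). Of 5 cushion mesenchyme markers 4 were called higher (0 to 4 when a library was left out), with sums of 1533 to 1961 CPM in the second litter and 574 to 1618 CPM in the first. Erythroid markers held 1741 to 4791 CPM in the second litter and 1870 to 10257 CPM in the first, with 1 of 8 called lower (0 to 5 when a library was left out). Neural crest and glia markers held 47.6 to 54.6 CPM in the second litter, against 9.09, 11.6 and 22.0 CPM in WT 2, WT 1 and HO 1 and 98.1 CPM in HO 2 of the first, with 1 of 4 tested called higher (0 to 1 when a library was left out). Of these 6 markers Foxd3 and Tfap2a were under 1 CPM in every library. No marker of the other 3 lists was under 1 CPM in every library. Their part in the litter differences of Dkk1, the Lgr genes and the Wnt targets was not tested.

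Whether the HO against WT difference itself changed between litters was tested as an interaction over 8 libraries. Its p-values too cover spread between libraries and not between litters. Of the 9 genes, 0 passed edgeR at an adjusted p of 0.05, and 1, Lgr6, had an unadjusted p under 0.05. DESeq2 also called 0. Over all genes 0.0123% passed by edgeR. The interaction was 2.05 (SE 0.86, edgeR adjusted p = 0.602) for Lgr6, -1.43 (SE 0.76) for Rnf43, -1.09 (SE 0.68) for Dkk1 and -0.60 (SE 0.34, edgeR adjusted p = 0.712) for Rspo3. Without HO 1, Rspo1 passed at 1.71 (edgeR adjusted p = 0.0413), against 0.57 (edgeR adjusted p = 0.870) with it. Of the 47 pathway genes, 0 passed edgeR, 12 had an unadjusted p under 0.05, and DESeq2 called 1. The interaction was -2.34 (SE 0.70) for Notum and -1.33 (SE 0.32) for Lef1, with edgeR adjusted p of 0.476 and 0.393. The Lef1 log2 fold change of HO over WT was -0.37 (SE 0.19) in the second litter with HO 5 and 1.14 (SE 0.33) in the first.

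Genes with the most similar pattern were listed for Rspo3 and Dkk1 by Pearson r of log2 CPM over the 9 libraries, among 11302 other genes averaging at least 5 CPM. These coefficients describe the ranking and carry no test, since the libraries share genotype and litter. For Rspo3 they were Znhit2 (r = 0.884), B3galt4 (0.879), Tnnt1 (0.875), Raph1 (0.874) and Rpgrip1l (0.851). With the genotype means taken off they were 2700099C18Rik (0.923), Sphkap (0.919), Ahsa2 (0.908), Znhit2 (0.900) and Tmem218 (0.885). For Dkk1 they were the chromatin protein gene Hmga2 (0.988), the carbonic anhydrase gene Car4 (0.985), the gamma-actin gene Actg1 (0.984), Hgh1 (0.983) and the growth factor receptor gene Pdgfra (0.982). With the genotype means taken off they were Actg1 (0.992), the replication helicase gene Mcm4 (0.991), Hmga2 (0.990), the topoisomerase gene Top2a (0.989) and Nipal4 (0.985). Spearman rho of the same genes was 0.683 to 0.900 for Rspo3 and 0.900 to 0.967 for Dkk1. Dkk1 values fall into separate sets by litter.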

How the data were processed

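Per the labels' protocols, RNA was isolated on RNeasy columns and sequenced from low-input SMART-Seq libraries. The authors deposited whole-number read counts per gene symbol, 1 table per library. The submitters' processing notes name STAR 2.5.0c, Picard, HTSeq 0.6.0, DESeq2 and mm10; the annotation and the strand setting were not given in the sources used here. The 5 rows that name no gene (20.6% to 23.5% of reads) were left out.

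Counts were fitted with edgeR 4.0.16 in R 4.3.3 (TMM scaling, filterByExpr with a minimum count of 10, robust quasi-likelihood test, two-sided, Benjamini-Hochberg adjustment over all genes tested, threshold 0.05). The procedure was tested on simulated data. DESeq2 1.42.0 and limma 3.58.1 (voom with sample weights) were alternatives, run on the same filtered genes, as were other scalings, filters and covariates, each litter by itself, and each library left out in turn. For RPKM, CPM was divided by merged exon length from GENCODE M21, and 0.01 was added before log2. Log2 CPM used a prior count of 2.

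Replicate numbers are shared by the genotypes. Same-numbered HO and WT samples deviated together (r = 0.242, 0.137, 0.227 and 0.176 for replicates 1 to 4), but this gives no evidence of pairs beyond the litter number. The main fits did not pair samples, and the numbers in the sample titles were taken as pairs only in fits with a replicate block. The numbers are nested in the litter numbers, and the mean r over all HO and WT pairs was 0.194 within a litter number and -0.196 between litter numbers. With genotype and litter fitted, the correlation within a replicate number (limma duplicateCorrelation) was -0.128, so what same-numbered samples share is not set apart from the litter. No libraries of 1 group were alike enough to be duplicates.

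The genes and lists were chosen with earlier results of these data known. Named were all 10 genes, 15 fixed pathway genes (Axin2, Lef1, Tcf7, Nkd1, Notum, Sp5, Lrp5, Lrp6, Ctnnb1, Kremen1, Kremen2, Dkk2, Dkk3, Sdc4, Bmpr1a), pathway genes called by a fit, and the 5 genes closest in pattern to Rspo3 and to Dkk1.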

Additional observations from a re-analysis of the deposited data

Results flagged for a closer look

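Rspo1 in HO 1, at 28.9 CPM, stood apart from the other 4 HO libraries, the nearest of which was at 12.6 CPM; the gap was 0.800 of the range of the group. Rspo2 was also highest in HO 1, at 11.6 CPM, with the nearest HO library at 6.00 CPM and a gap of 0.744 of the range. These were 2 of 18 groups checked, and chance marks about 1 in 20. In the WT libraries of the same litter, Rspo1 stood at 39.5 and 41.9 CPM in WT 1 and WT 2 and Rspo2 at 9.37 and 6.90 CPM.

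For 7 pathway genes, HO and WT libraries lay apart in opposite directions in the litters, without HO 5. These genes were picked for this pattern, and its share over all genes was not counted, so nothing is read from their number. The interaction was 1.07 for Dkk2, 0.833 for the glypican gene Gpc6, 0.489 for the syndecan gene Sdc1, 1.28 for Sost and 2.46 for Sp5, which were higher in HO in the second litter and lower in the first. It was -0.388 for Dvl3 and -1.33 for Lef1, which had the opposite pattern. By edgeR 0 of the 7 interactions passed (adjusted p 0.393 to 0.603).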

How the results depend on the processing

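For HO against WT, Rspo3 kept its sign in every fit run and lay between -0.81 and -0.60 when each library was left out; within the second litter without HO 5 it was -1.05. Lgr6 was 0.80 within the second litter and 0.74 there with HO 5, and Rnf43 0.92 within the first. Genes called were 34 by DESeq2, 4 by limma-voom, 6 within the second litter and 0 to 1 when a library was left out. With the replicate number as a block, Rspo3 was at -0.77 and Dkk1 at 1.34; the block called 0 genes there and 0 in the interaction, and changed no other call of these 2 comparisons.

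For the litter contrast, within WT alone (chosen after seeing the data, as was HO alone) Rspo1 passed at -1.40 (edgeR adjusted p = 0.00759), and Rspo2 (-1.01), Lgr5 (1.58) and Znrf3 (0.73) did not. Within HO alone, with 2 libraries a litter, Rspo2 (-1.04), Lgr5 (1.88), Lgr6 (-1.96), Znrf3 (0.51) and Dkk1 (2.72, edgeR adjusted p = 0.139) did not pass, nor did any of the pathway genes (0). Genes called were 782 in WT alone and 17 in HO alone. DESeq2 called 3107 genes, among them Rspo1 (-1.11) and Lgr4 (-0.50), and limma-voom passed Rspo1 (-1.19) but not Znrf3 (0.58). Without a low-count filter Lgr6 was -2.96 (edgeR adjusted p = 0.0985). Leaving out each library gave 346 (without WT 3) to 1734 (without HO 2) genes called, with 411 without WT 4, 385 without HO 3, 768 without HO 4 and 984 without WT 1; 1 to 6 of the 9 genes and 3 to 10 pathway genes passed. Log2 fold changes then ranged from 1.51 to 1.98 for Lgr5, -3.42 to -2.42 for Lgr6, -1.41 to -0.78 for Rspo1, -1.17 to -0.80 for Rspo2 and 0.54 to 0.75 for Znrf3. Some fits, chosen after seeing the data, took the replicate number as a block. The one with a random block (limma-voom) passed Rspo1 (-1.14, limma-voom adjusted p = 0.0447) and kept the other calls. It called 6 of the 9 genes, against 5 by limma-voom without the block. The main edgeR fit had an adjusted p of 0.0646 for Rspo1. Sums per replicate number, with 2 a litter, passed Rspo1 (-1.17), Lgr5 and Lgr6, did not pass Rspo2 (-1.02), Znrf3 (0.66) or Dkk1 (2.93), and called 622 genes and 5 pathway genes. Dkk1 had adjusted p from 3.83e-15 to 0.139 over its alternatives.

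The interaction called 185 genes by DESeq2 (1 pathway gene), 10 with HO 5 in the second litter, and 0 to 241 when a library was left out (0 to 2 pathway genes; 241 without HO 1). Taking the longest transcript as length changed no call in the order of levels. The order of close neighbours that did not pass, such as Rspo1 and Lgr4 or Rnf43 and Lgr5, depends on the length taken. Lgr5 has 10264 merged exon bases and 4793 in its longest transcript, and Rnf43 6558 and 4310. Lgr4 has 5884 and 5060, and Rspo1 1938 and 1834. The cause of these changes was not tested, beyond the smaller number of libraries. Fewer than 5 CPM limits what Rnf43 and Rspo4 can show.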
